A study of Mus musculus with 12 samples.

Results

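The MiT/TFE transcription factors and the lysosomal nutrient sensing machinery that controls them were examined in the hippocampus of WT and USF-1 KO mice. The 10 genes were chosen by name: the factors Mitf, Tfeb, Tfe3 and Tfec, the folliculin complex genes Flcn, Fnip1 and Fnip2, and the Rag and Ragulator genes Rragc, Rragd and Lamtor1. All 10 were found among the 55487 genes of the table. The rule that names them uses no measured value, but these genes and the lists below were chosen with earlier results of these data known.

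MiT/TFE factors are basic helix-loop-helix leucine zipper proteins that bind E-boxes of lysosomal and autophagy genes as dimers. In fed cells the Rag GTPases, anchored to the lysosome by the Ragulator scaffold, recruit both mTORC1 and the factors, which are phosphorylated and kept in the cytoplasm. The folliculin complex acts on RagC and RagD and is needed for this phosphorylation. USF-1 belongs to the same wider protein class and recognises the E-box CACGTG, so that both families can share motifs.

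The study sequenced hippocampal RNA of 12 mice of strain C57Bl/6JRccHsd aged 3 to 4 months, 6 WT and 6 USF-1 KO, with 1 library per mouse. According to the labels, 4 WT mice were females and 2 were males, whereas 2 USF-1 KO mice were females and 4 were males. The study's legend for its figure of hippocampal sequencing and quantitative PCR instead gives 3 males and 3 females per genotype. The labels are used here. WT and USF-1 KO mice were bred from heterozygous USF-1 deficient parents, and no further allele or treatment is given by the labels for either genotype. Mice are named below by genotype and the mouse number of the labels. The values are normalised counts, in which the reads of a gene are scaled by 1 size factor for each library, and libraries held 21679622 to 32091173 reads on genes.

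Of the whole tissue, the following is needed to read the values. The targeted gene Usf1 was measured at 1409 ± 284 normalised counts in WT mice and 141 ± 15.0 in USF-1 KO mice (SD, n = 6 each). Which part of the gene the KO mice lack is not given in the sources used here. The related factor Usf2, which dimerises with USF-1, was measured at 1995 ± 73.9 in WT and 2075 ± 26.7 in USF-1 KO mice and did not pass the test (log2 difference 0.06, limma, adjusted p = 0.468). The summed level of 6 hippocampal neuron markers lay between 50495 and 73095 in the 12 mice. RNA of these markers was thus present in every library, although the sum alone does not establish the tissue. Markers of the choroid plexus, the epithelium that makes cerebrospinal fluid, summed to 57137 in WT 490 and 161816 in WT 493, compared with 770 to 2688 in the other 10 mice. The 6 oligodendrocyte markers, genes of the myelin-forming glia, summed to 83576 at the lowest and 180879 at the highest in WT mice, and to 71972 and 110270 in USF-1 KO mice, and the lowest WT value was that of WT 522.

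Promoter windows were inspected for the E-box because it is the motif that both factor families bind. RefSeq promoters on GRCm38.p6, reaching from 250 bases before to 50 bases after a gene start, were found for 10 of the 10 genes. The motif CACGTG, which reads the same on both strands, was present in the windows of Rragc, Lamtor1 and Fnip1 and absent from those of the other 7 genes. Across the genome it occurred in the windows of 8.09% of 27025 genes. In the same 3 genes the motif was part of TCACGTG, searched on both strands, which 4.29% of genes hold. The sequences around the motif are given 5′ to 3′ along the strand of the gene, with the E-box in capitals. All 3 end upstream of the RefSeq start, and the motif begins 112 bases before it in Rragc (chr4:123917294-123917353, plus strand), 68 bases before it in Lamtor1 (chr7:101905742-101905801, plus strand) and 75 bases before it in Fnip1 (chr11:54438077-54438136, plus strand).
Rragc: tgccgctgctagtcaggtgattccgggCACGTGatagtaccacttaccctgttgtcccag
Lamtor1: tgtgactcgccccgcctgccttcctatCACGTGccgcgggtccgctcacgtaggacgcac
Fnip1: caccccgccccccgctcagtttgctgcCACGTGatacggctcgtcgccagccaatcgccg

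Gaa, Sgsh and Ctsa, known to be activated by MiT/TFE factors, are shown beside them, because they hold the motif and were lower in USF-1 KO mice in the comparison given further on. Gaa encodes the lysosomal acid alpha-glucosidase, Sgsh the heparan sulfate sulfatase sulfamidase, and Ctsa the protective protein cathepsin A. The windows are chr11:119267796-119267855 on the plus strand for Gaa, chr11:119355511-119355566 on the minus strand for Sgsh and chr2:164833734-164833772 on the plus strand for Ctsa. The E-box begins 140, 29 and 12 bases before a RefSeq start of Gaa, Sgsh and Ctsa, respectively. The windows of Sgsh and Ctsa are shortened so that they end at the base before that start.
Gaa: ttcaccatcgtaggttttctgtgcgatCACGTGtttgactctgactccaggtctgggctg
Sgsh: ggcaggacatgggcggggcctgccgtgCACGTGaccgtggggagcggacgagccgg
Ctsa: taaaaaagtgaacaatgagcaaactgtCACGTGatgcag

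Genotypes were then compared with limma on log2(normalised count + 1) across the 18221 genes whose mean reached 10 normalised counts, and p-values were adjusted by Benjamini-Hochberg over all of them with a threshold of 0.05. Of the 10 genes 9 could be tested in this way, while Tfec was too low. None of the 9 passed the threshold, so 0 of 9 were called, compared with 0.9% of all genes tested. At an unadjusted p under 0.05, 3 of the 9 genes were found (Mitf, Tfeb and Rragd), compared with 13.5% of all genes. edgeR and DESeq2 on the recovered reads also called 0 of the 9. In 0 of the 9 genes were the genotypes free of overlap, as they were in 1.5% of all genes. Of the 9 log2 differences 4 were below 0 and 5 above, with a median of 0.01, and the median of all genes tested was -0.00065. With WT 522 left out 1 of the 9 genes was called, Tfeb, compared with 2.83% of all genes.

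**Figure D1:**
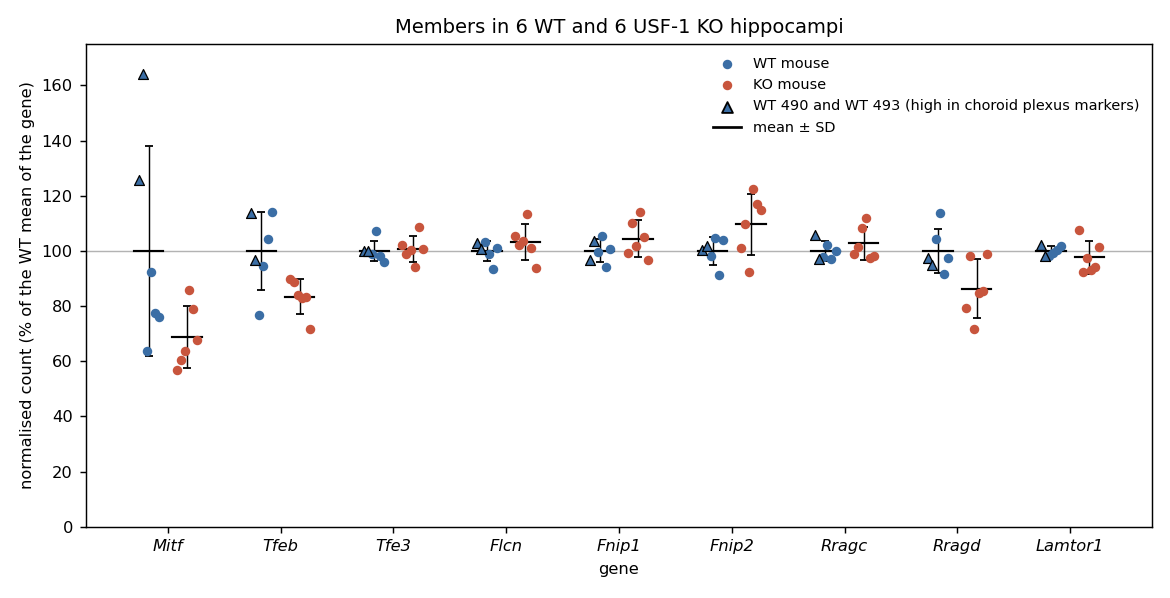
Normalised counts of the 9 tested genes in each of the 12 mice, as a percentage of the WT mean of the gene (WT blue, USF-1 KO red, bars mean ± SD of 6 mice). The WT and USF-1 KO mice overlap for every gene, and the WT spread of Mitf is set by WT 490 and WT 493, drawn as triangles.

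The MiT/TFE factors themselves came first. Mitf (ENSMUSG00000035158, chromosome 6, 97807052 to 98021349, plus strand), known as the master factor of melanocytes and also expressed in other cells, ranged from 172 normalised counts in WT 522 over a median of 229 to 442 in WT 493. In USF-1 KO mice it ranged from 152 in KO 482 over a median of 176 to 231 in KO 530. The USF-1 KO mice all lay below the WT mean of 269 ± 102 (SD, n = 6), and 3 of them lay below the lowest WT mouse. The USF-1 KO mean of 185 ± 30.4 was 68.8% of that of WT mice. This difference did not pass the threshold (log2 difference -0.47, SE 0.20, 95% interval -0.90 to -0.05, limma, adjusted p = 0.308). A two-sided exact permutation test over the 924 ways to split the mice into 6 and 6 gave an unadjusted p = 0.0628.

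WT 493 and WT 490, at 442 and 338 normalised counts, were the 2 mice highest in Mitf, and they were also the 2 mice with the high choroid plexus markers. The other 4 WT mice lay between 172 and 248. Without these 2 libraries the log2 difference of Mitf was -0.17 (SE 0.13, 95% interval -0.46 to 0.11, limma, adjusted p = 0.760). All 6 choroid plexus markers had log2 differences below 0, and 0 of them passed the threshold or an unadjusted p under 0.05. Their part in the difference of Mitf over all 12 mice was not tested beyond leaving out these libraries. Melanocyte markers were near the limit of detection. Tyr and Mlana, the defining melanocyte genes of the list, had at most 3 reads in every library, and the sum over its 5 genes reached 31.8 in WT mice and 26.8 in USF-1 KO mice at the highest.

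Tfeb (ENSMUSG00000023990, chromosome 17, 47737030 to 47792419, plus strand), the factor best known for driving lysosome biogenesis, was measured from 178 in WT 522 over a median of 233 to 265 in WT 573. In USF-1 KO mice it ranged from 166 in KO 564 over a median of 194 to 208 in KO 482. Every USF-1 KO mouse lay below the WT mean, and WT 522 was the only WT mouse within the range of the USF-1 KO mice. Means were 232 ± 32.6 and 194 ± 15.0 (SD, n = 6 each), so that USF-1 KO mice were at 83.4% of WT mice, and the difference did not pass the threshold (log2 difference -0.25, SE 0.10, 95% interval -0.46 to -0.05, limma, adjusted p = 0.257). The two-sided exact permutation test gave an unadjusted p = 0.0390. Without WT 522 the log2 difference was -0.32 (SE 0.08, limma, adjusted p = 0.0433). Without the libraries high in choroid plexus markers, the log2 difference of Tfeb was -0.21 (SE 0.11, limma, adjusted p = 0.592).

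WT 522 was also the WT mouse with the lowest oligodendrocyte marker sum, at 83576, within the USF-1 KO range. The other 5 WT mice lay at 139662 or above and the USF-1 KO mice at 110270 or below. All 6 oligodendrocyte markers had log2 differences between -0.73 and -0.59 with an unadjusted p under 0.05, and 0 of the 6 passed the threshold (limma). The sum differed between genotypes in a two-sided exact permutation test (unadjusted p = 0.0152). The part of these markers in the difference of Tfeb was not tested. In whole tissue, fewer cells of a type and less RNA per cell cannot be told apart.

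**Figure D2:**
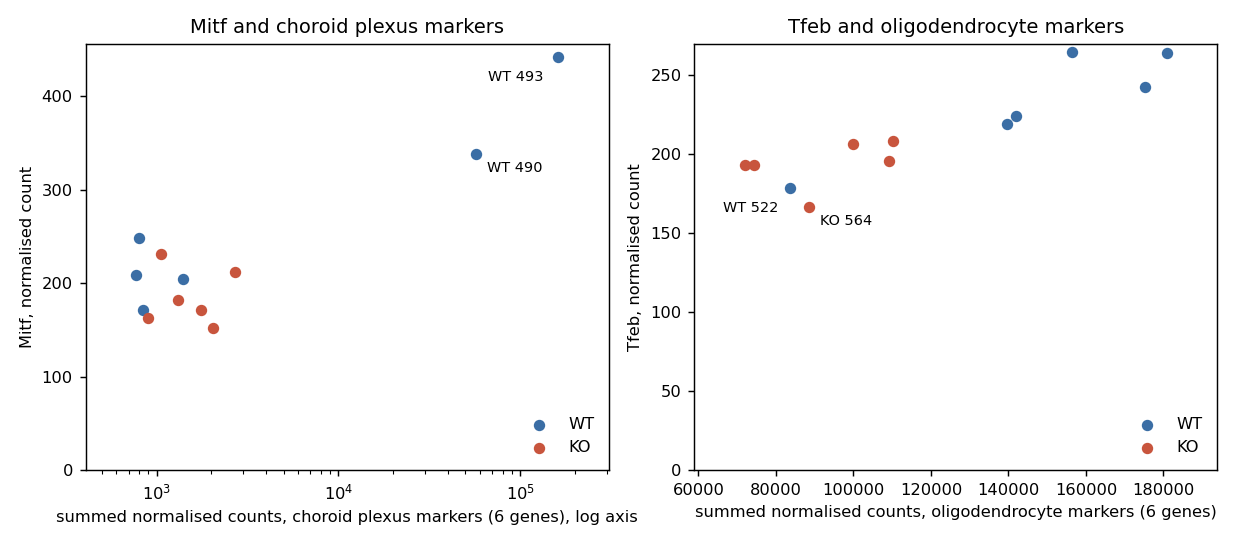
Mitf against the summed choroid plexus markers (log axis) and Tfeb against the summed oligodendrocyte markers, all in normalised counts, 1 point per mouse (WT blue, USF-1 KO red). WT 490 and WT 493 are highest on both axes of the first panel, and WT 522 lies among the USF-1 KO mice in the second.

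Tfe3 (ENSMUSG00000000134, X chromosome, 7762560 to 7775202, plus strand), the close relative of Tfeb with overlapping targets, was the most abundant of the 4 factors. It ranged from 918 over a median of 950 to 1023 in WT mice and from 902 over a median of 960 to 1037 in USF-1 KO mice. Both ranges covered nearly the same values. The means were 956 ± 35.7 and 963 ± 44.2 (SD, n = 6 each), with a log2 difference of 0.01 (SE 0.04, 95% interval -0.08 to 0.10, limma, adjusted p = 0.943). The interval in fold terms ran from 0.948 to 1.07.

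Tfec (ENSMUSG00000029553, chromosome 6, 16833373 to 16898441, minus strand), a factor described mainly in macrophages and retinal pigment epithelium, had between 0 and 3 reads per library. Both genotypes were thus at or under a floor of 3 reads, no fold was computed, and a genotype difference was not detectable at this depth.

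**Figure D3:**
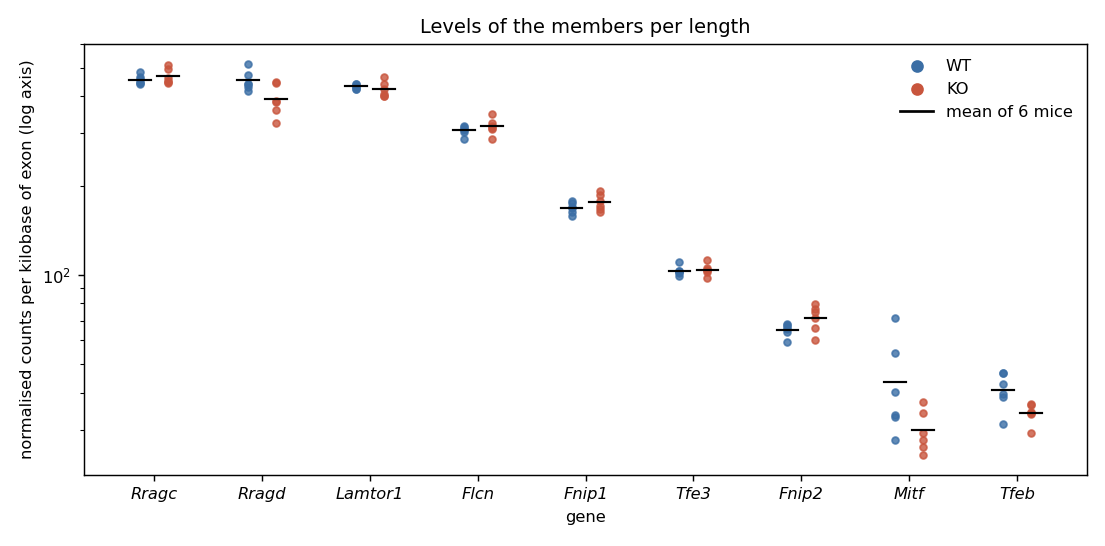
Normalised counts per kilobase of exon of the 9 tested genes on a log axis, with 1 point per mouse and a line at the mean of 6 mice (WT blue, USF-1 KO red). Rragc, Rragd and Lamtor1 form the upper level, and Mitf and Tfeb the lower.

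To compare levels between genes, normalised counts were divided by the kilobases of annotated exon of each gene, pooled over its isoforms. In WT mice Rragc was at 456 ± 16.2, Rragd at 453 ± 36.2 and Lamtor1 at 433 ± 7.72 normalised counts per kilobase (SD, n = 6 each). Rragd did not differ from Rragc or Lamtor1 beyond its spread. Flcn followed at 307 ± 11.2, Fnip1 at 168 ± 7.05, Tfe3 at 103 ± 3.86 and Fnip2 at 65.2 ± 3.25 normalised counts per kilobase, with no overlap of WT mice from Lamtor1 down to Fnip2. Mitf at 43.4 ± 16.5 and Tfeb at 40.9 ± 5.75 per kilobase did not differ beyond their spread, Mitf of WT 493 lay above the level of Fnip2, and Tfec was lowest at 0.199 ± 0.215. In USF-1 KO mice the levels per kilobase of Rragc (468 ± 27.7), Lamtor1 (423 ± 25.8) and Rragd (391 ± 48.4) were again the highest.

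The folliculin complex showed log2 differences above 0 in 3 of its 3 genes, and 0 of them passed the test, also at an unadjusted p under 0.05 (limma). Flcn (ENSMUSG00000032633, chromosome 11, 59791408 to 59810016, minus strand) encodes folliculin, the GTPase-activating subunit for RagC and RagD. It ranged from 1239 over a median of 1339 to 1373 in WT mice and from 1245 over a median of 1366 to 1505 in USF-1 KO mice. The ranges overlapped, although 3 USF-1 KO mice exceeded all WT mice. The log2 difference of Flcn was 0.04 (SE 0.04, 95% interval -0.05 to 0.14, limma, adjusted p = 0.719).

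Fnip1 (ENSMUSG00000035992, chromosome 11, 54438199 to 54518235, plus strand) encodes a partner that binds folliculin and AMPK, and it is one of the genes with the E-box shown above. Its normalised counts were 1126 at the lowest, 1199 at the median and 1262 at the highest in WT mice, and 1157, 1238 and 1366 in USF-1 KO mice. The log2 difference of Fnip1 was 0.06 (SE 0.05, 95% interval -0.04 to 0.16, limma, adjusted p = 0.608). Fnip2 (ENSMUSG00000061175, chromosome 3, 79455974 to 79567796, minus strand) encodes the second partner of folliculin. It was measured at 497 at the lowest, 552 at the median and 572 at the highest in WT mice, and at 505, 612 and 668 in USF-1 KO mice. In 4 USF-1 KO mice Fnip2 exceeded all WT values, and the other two lay within the WT range. The means of Fnip2 were 546 ± 27.2 and 598 ± 60.5 (SD, n = 6 each), with a log2 difference of 0.13 (SE 0.07, 95% interval -0.02 to 0.27, limma, adjusted p = 0.432).

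Of the Rag and Ragulator genes, Rragd had the largest difference and Rragc and Lamtor1, which hold the E-box, small ones. Rragd (ENSMUSG00000028278, chromosome 4, 32983037 to 33022180, plus strand) encodes RagD, a GTPase that pairs with RagA or RagB. It ranged from 2153 in WT 547 over a median of 2287 to 2671 in WT 523, and from 1683 in KO 488 over a median of 1994 to 2320.0 in KO 564. In 4 USF-1 KO mice the level was below that of every WT mouse, and the other two, KO 484 and KO 564, lay among the WT mice. The means were 2345 ± 187 and 2025 ± 250.2 (SD, n = 6 each), which put USF-1 KO mice at 86.4% of WT mice. The log2 difference was -0.22 (SE 0.08, 95% interval -0.38 to -0.05) and did not pass the threshold (limma, adjusted p = 0.222). The two-sided exact permutation test gave an unadjusted p = 0.0346. Without the libraries high in choroid plexus markers the log2 difference of Rragd was -0.24 (SE 0.09, limma, adjusted p = 0.408).

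Rragc (ENSMUSG00000028646, chromosome 4, 123917446 to 123936997, plus strand) encodes RagC, the partner of RagA and RagB whose GDP-bound form presents the MiT/TFE factors to mTORC1. It ranged from 1476 over a median of 1507 to 1613 in WT mice and from 1485 over a median of 1526 to 1707 in USF-1 KO mice, and the ranges overlapped. The log2 difference of Rragc was 0.04 (SE 0.04, 95% interval -0.05 to 0.13, limma, adjusted p = 0.758). Lamtor1 (ENSMUSG00000030842, chromosome 7, 101905904 to 101926675, plus strand) encodes the lipid-anchored subunit that holds Ragulator on the lysosomal membrane. It ranged from 1365 over a median of 1391 to 1421 in WT mice and from 1286 over a median of 1334 to 1499 in USF-1 KO mice. The WT range was narrow, with 4 USF-1 KO mice below it and 1 above. The log2 difference of Lamtor1 was -0.04 (SE 0.04, 95% interval -0.12 to 0.05, limma, adjusted p = 0.759). On opposite strands, the exons of Lrrc51 overlap 18.7% of the exon bases of Lamtor1 and those of 4930535I16Rik 7.90% of the exon bases of Rragc, and without a stated strand setting their reads cannot be told apart. Of the 50-base stretches of Lamtor1 transcripts, 8.09% also occur in transcripts of other genes, compared with 0% to 0.476% for the other 9 genes.

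Since the genotypes were unequal in sex by the labels, the genes were also compared within each labelled sex. There 0 of the 9 genes passed the threshold in females or in males (limma), with 1 gene in each sex at an unadjusted p under 0.05. Over all genes tested 4 passed the threshold in females and 6 in males. The share of all genes at an unadjusted p under 0.05 within each sex is not given here. The log2 difference of Tfeb was -0.24 in females and -0.27 in males. That of Mitf was -0.23 (SE 0.26) in females and -0.79 (SE 0.27) in males, where WT 493 is 1 of the 2 WT mice. For Rragd it was -0.40 (SE 0.09) in females and -0.05 (SE 0.09) in males. The difference between the sexes for Rragd was 0.35 on the log2 scale (SE 0.14, males minus females) and did not pass the test of the interaction (limma, unadjusted p = 0.0316, adjusted p = 0.9999). When sex was added to the fit, 0 of the 9 genes passed the threshold, and Tfeb, Mitf and Rragd had log2 differences of -0.25, -0.51 and -0.23.

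For each factor the 3 genes most like it were named by Pearson's r of the log2 values over the 12 mice after removal of the genotype means. These are descriptions. Both genes of a pair are measured in the same libraries, of which WT 490 and WT 493 stand apart in choroid plexus markers. For Mitf the most similar genes were Tmtc1 (r = 0.957), Eif4enif1 (r = 0.951) and Car12 (r = 0.937). In the 10 libraries without high choroid plexus markers they were Eif4enif1 (r = 0.975), Col25a1 (r = 0.970) and Ppp4r4 (r = 0.968), so 1 of the 3 was shared. For Tfeb they were Tube1 (r = 0.926), Nde1 (r = 0.911) and Kif13b (r = 0.898) over 12 mice, and for Tfe3 4732463B04Rik (r = 0.904), Eef1a1-ps1 (r = 0.888) and Gm6170 (r = 0.886). In the 10 libraries the genes for Tfeb were Ngfr (r = 0.976), Tube1 (r = 0.957) and Casp12 (r = 0.933), and those for Tfe3 were Hhat (r = 0.935), 4732463B04Rik (r = 0.928) and Tbxa2r (r = 0.901), so 1 of the 3 was shared in each case. Eef1a1-ps1 is a pseudogene, whose reads may be shared with its parent gene. The factors did not resemble each other over the 12 mice, with r = 0.20 between Mitf and Tfeb, r = 0.10 between Mitf and Tfe3 and r = -0.15 between Tfeb and Tfe3.

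Beyond the 10 genes, 42 other genes of the pathway were examined in 5 lists. Of these, 0 of 42 passed the threshold (limma), compared with 0.9% of all genes tested. At an unadjusted p under 0.05, 6 of the 42 were found, compared with 13.5% of all genes. edgeR called 0 and DESeq2 1 of the 42 genes, compared with 3.64% of all genes by DESeq2. The median log2 difference of the 42 genes was 0.02, 15 were below 0 and 27 above, and the values ran from -0.27 to 0.14. The genotypes did not overlap for 1 of the 42 genes, Rragb, again compared with 1.5% of all genes.

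Rragb, an X-linked gene for the RagB GTPase that pairs with RagC or RagD, is named here after its values were seen. It ranged from 1578 over a median of 1653 to 1773 in WT mice and from 1378 over a median of 1460.5 to 1574 in USF-1 KO mice. The lowest WT mouse thus lay just above the highest USF-1 KO mouse. The log2 difference was -0.18 (SE 0.04, 95% interval -0.27 to -0.09, limma, adjusted p = 0.0722), and the two-sided exact permutation test gave an unadjusted p = 0.00216, the smallest that 924 splits allow. It was the gene that DESeq2 called. With sex added to the fit the adjusted p was 0.146, and without the libraries high in choroid plexus markers it was 0.238 (limma). The log2 difference of Rragb was -0.08 (SE 0.07) in females and -0.25 (SE 0.06) in males. Rraga, its close paralogue and the most abundant other Rag or Ragulator gene, was measured at 1905 ± 58.0 and 1907 ± 75.4 (SD, n = 6 each), with a log2 difference of 0.00 (limma, adjusted p = 0.993). Lamtor5, also named after its values were seen, is a Ragulator subunit and had a log2 difference of -0.19 (limma, adjusted p = 0.145). Both Rragb and Lamtor5 passed the threshold when WT 522 was left out. The other 5 Rag, Ragulator and lysosomal amino acid sensing genes lay between -0.08 and 0.01 on the log2 scale.

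In the GATOR and KICSTOR list, which holds the complexes that switch RagA and RagB, 9 of 11 log2 differences were above 0. There 0 of 11 passed the threshold and 3 had an unadjusted p under 0.05 (limma), beside 0.9% and 13.5% of all genes tested. Of the 6 amino acid sensors 0 passed the threshold, and Castor2, of the arginine sensor family, had a log2 difference of -0.07 (limma, adjusted p = 0.776). Of 9 genes of mTORC1, Rheb and the TSC complex 0 passed, and Tsc2, the GTPase-activating subunit for Rheb, had a log2 difference of 0.09 (limma, adjusted p = 0.473). These 2 lists had 0 genes at an unadjusted p under 0.05. Of 8 genes of the calcium and export control of TFEB 0 passed the threshold, with 1 at an unadjusted p under 0.05. Its most abundant gene, the calcineurin subunit Ppp3ca, had a log2 difference of 0.14 (limma, adjusted p = 0.657).

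Genes known as targets of MiT/TFE factors were examined last, because levels of the factors do not report their activity. Of 24 such lysosomal and autophagy genes, all tested, 6 were lower in USF-1 KO mice, 0 were higher and 18 did not pass the threshold (limma). The share of 25% called lower stands beside 0.741% of all genes tested. edgeR called 6 of the 24 genes, all lower, and DESeq2 called 9, of which 8 were lower and 1 higher, beside 3.64% of all genes by DESeq2. The list was written with results on some of its genes known, and is not independent evidence of its direction. Of the 24 log2 differences 19 were below 0, and the median was -0.15. The genotypes did not overlap in 9 genes, beside 1.5% of all genes tested, with USF-1 KO mice lower in 8 and higher in 1. The latter, Sqstm1, which encodes the autophagy receptor p62, is named after its values were seen. It had a log2 difference of 0.10 and was the gene that DESeq2 called higher (adjusted p = 0.00422), while it did not pass the threshold with limma (adjusted p = 0.163).

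Gaa had the lowest adjusted p of the list. It ranged from 9707 over a median of 10773 to 11577 normalised counts in WT mice and from 6073 over a median of 7039 to 7344 in USF-1 KO mice, with no overlap. USF-1 KO mice were at 64.5% of WT mice, and the log2 difference was -0.63 (SE 0.05, limma, adjusted p = 4.51e-05). Sgsh fell from 238 ± 30.2 to 137 ± 21.2 (SD, n = 6 each; log2 difference -0.80, SE 0.11, limma, adjusted p = 0.00305). Tpp1, the lysosomal tripeptidyl peptidase, fell from 1998 ± 153 to 1447 ± 31.5 (log2 difference -0.46, SE 0.05, limma, adjusted p = 2.71e-04). Hexa, the alpha subunit of beta-hexosaminidase, fell from 1267 ± 94.7 to 953 ± 53.9 (log2 difference -0.41, SE 0.05, limma, adjusted p = 0.00277). These 4 genes passed the threshold also without the libraries high in choroid plexus markers.

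Ctsa fell from 2510.3 ± 155 to 2127 ± 129 (SD, n = 6 each; log2 difference -0.24, SE 0.05, limma, adjusted p = 0.0415). It missed the threshold without the choroid-high libraries (limma, adjusted p = 0.208). Psap, the precursor of the saposins and the most abundant gene of the list, was measured at 40557 ± 3066 and 39990 ± 1691 (SD, n = 6 each), with a log2 difference of -0.02 (limma, adjusted p = 0.919). Within the females 0 and within the males 1 of the 24 genes, Gaa, passed the threshold (limma), with 10 and 13 at an unadjusted p under 0.05. Over all genes tested 4 passed the threshold in females and 6 in males. The share of all genes at an unadjusted p under 0.05 within each sex is not given here, so the 10 and 13 cannot be set against it.

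**Figure D4:**
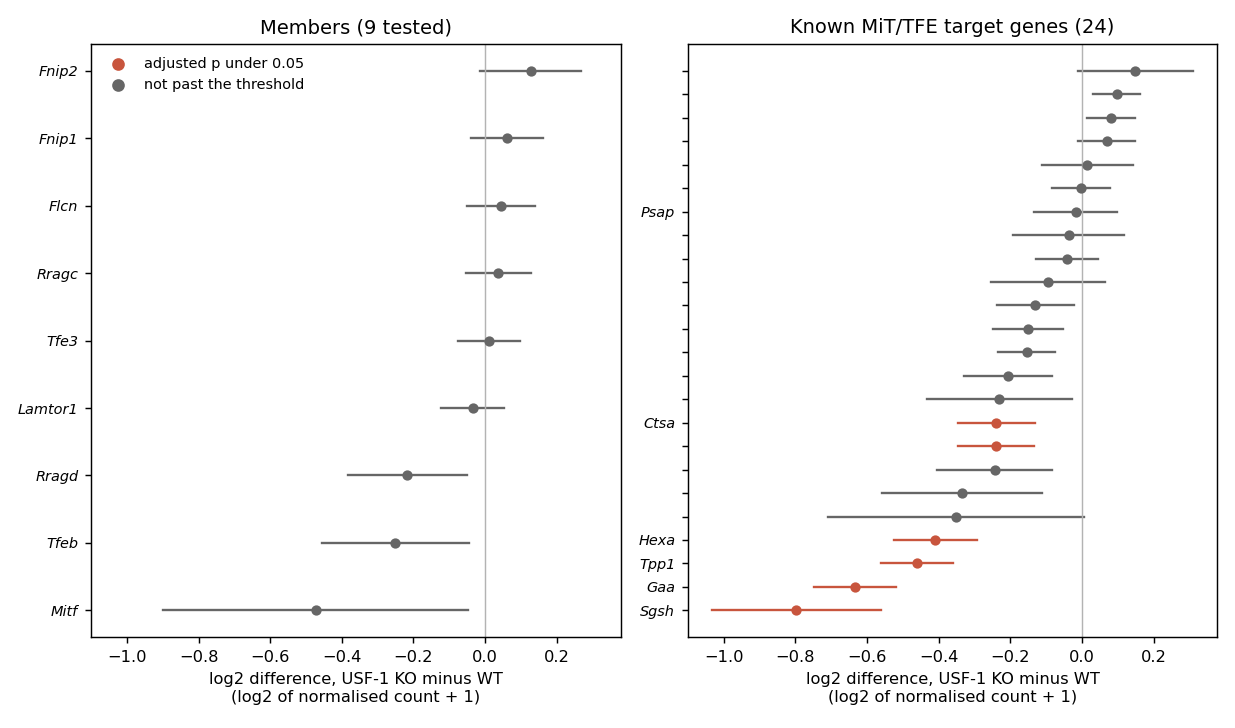
Log2 differences between USF-1 KO and WT mice with 95% intervals (limma, 6 mice each) of the 9 tested genes and of the 24 known MiT/TFE target genes. The intervals of Mitf, Tfeb and Rragd lie below 0 without passing the adjusted threshold, and 6 target genes (red), all below 0, pass it; only target genes named in the text are labelled.

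Markers of glia are given beside the target genes. The 6 microglia markers had log2 differences between -0.25 and -0.17, with 4 of 6 at an unadjusted p under 0.05 and 0 past the threshold (limma). Their sum ranged from 6006 to 8524 in WT mice and from 5608 to 6438 in USF-1 KO mice (two-sided exact permutation test, unadjusted p = 0.0108). The 5 astrocyte markers summed to 29356 at the lowest and 34391 at the highest in WT mice, and to 30138 and 33927 in USF-1 KO mice (two-sided exact permutation test, unadjusted p = 0.565). The part of the microglia and oligodendrocyte markers in the differences of the target genes was not tested.

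The E-box was then set beside these differences. Of the 19 target genes with a RefSeq promoter window 10 held CACGTG (52.6%). It was held by 17.1% of the 35 other pathway genes with a window and by 8.09% of all genes. The target genes were listed as known targets of factors that bind this motif. Their share can therefore follow from how the list was made and is not an independent result. The 10 target genes with the motif had a median log2 difference of -0.24, from -0.80 to 0.08, and 3 of them (Gaa, Sgsh and Ctsa) were called. The 9 target genes without it had a median of -0.04, from -0.46 to 0.15, and 2 of them (Tpp1 and Hexa) were called. The 6 other pathway genes with the motif, among them Rragb, had a median log2 difference of -0.05, from -0.18 to 0.04, and the 29 without it a median of 0.03, from -0.19 to 0.14. Of the 10 genes, Rragc, Lamtor1 and Fnip1 with the motif had log2 differences between -0.04 and 0.06. Mitf, Tfeb and Rragd, with the 3 lowest log2 differences of the 9 tested genes, did not hold these letters in their windows. The motif TCATGTG, another E-box form searched on both strands, was found in Lamtor1 alone of the 10 genes and in 4.31% of all genes. A match is a description of the sequence and not of binding.

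**Figure D5:**
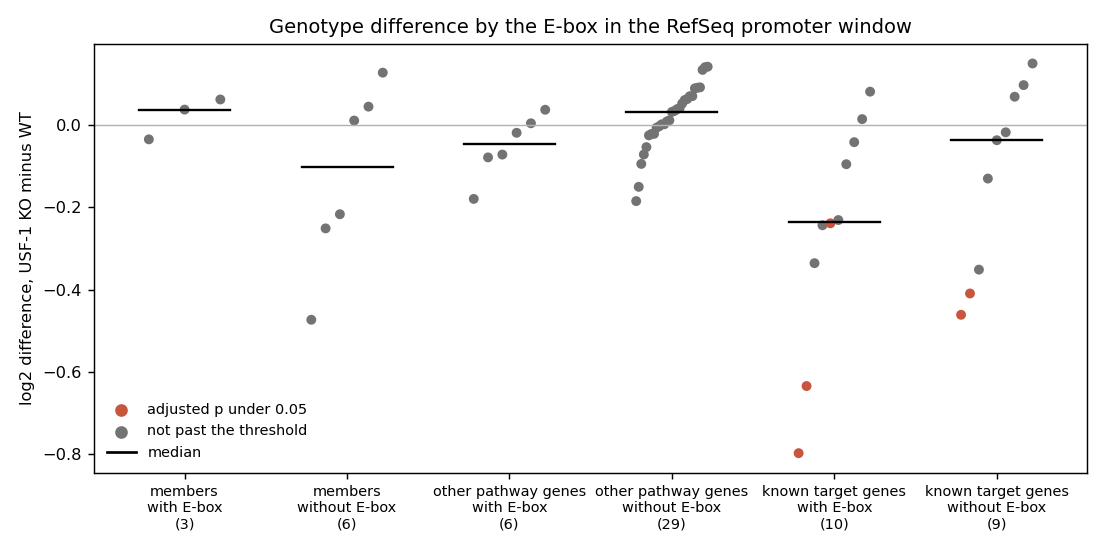
Log2 difference between USF-1 KO and WT mice of the tested members (the 10 genes without Tfec), the other pathway genes and the known MiT/TFE target genes, split by CACGTG in the RefSeq promoter window (number of genes in brackets, line at the median). The 3 members with the motif lie between -0.04 and 0.06, and called genes (red) are target genes with and without it.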

How the data were processed

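Gene signal was deposited as normalised counts, which the authors obtained by dividing reads per gene by a DESeq2 size factor of each library, after alignment on the Illumina Basespace platform and with STAR. The submitters' processing notes name STAR 2.5.0a, edgeR 3.22.2 and mm10. The counter and its strand setting are not given in the sources used here. In each library 100% of values were whole multiples of 1 step (within 0.01 reads), so reads were recovered, and no pair of libraries was a repeat (lowest chi-square per degree of freedom 4.54). Coordinates are those of the files (mm10); exons were taken from GENCODE M21 and promoters from RefSeq.

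limma 3.58.1 (R 4.3.3, mean-variance trend, genotype only, 12 mice, two-sided) was the main test, because the values are not raw counts. Settings changed in turn were the pseudocount (0.5, 5), the limit on the mean (none, 50), the scaling (equal totals, quantiles), the sex term, the sexes analysed, the trend, the tool (edgeR 4.0.16, DESeq2 1.42.0), the threshold (0.1) and the mice, without each mouse or without both libraries over 10 times the median in choroid plexus markers. Steps were tested on simulated counts. The members and lists were chosen with earlier results of these data known. Named were the 10 genes, Usf1, Usf2, each list's called and most abundant genes and the 3 genes most like each factor; the results of some genes are not reported here singly.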

Additional observations from a re-analysis of the deposited data

Results flagged for a closer look

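In 3 of the 22 groups of 6 mice examined, the 9 tested genes and Usf1 and Usf2 in each genotype, a single mouse lay far from the others by Dixon's test at the 95% level. Chance alone gives about 1 in 20. Tfeb in KO 564 was at 166.2 normalised counts, with the other 5 USF-1 KO mice between 193 and 208. Tfe3 in WT 523 was at 1023, with the other 5 WT mice between 918 and 956. Usf1 in WT 493, which is also the mouse highest in choroid plexus markers and in Mitf, was at 841.8 normalised counts, with the other 5 WT mice between 1425 and 1583.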

How the results depend on the processing

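Over the 9 tested genes, 221 of 225 alternative values kept the direction and the side of the threshold. Tfeb passed it without WT 522 (log2 difference -0.32). Tfe3 changed sign in females (-0.045), without WT 573 (-0.00094) and without KO 553 (-0.011), and reached 0.030 without WT 523; the cause was not tested. With single mice left out, 0 to 1 of the 9 genes, 0 to 2 of the 42 other pathway genes and 4 to 7 of the 24 target genes were called; the 1 and the 2 were reached without WT 522. DESeq2 called 1 of the 42 genes (Rragb) and so did a threshold of 0.1. Of the target genes, 0 were called in females and 1 in males, where fewer mice were compared. Over all genes the count of 164 became 98 with sex as a covariate, 4 in females, 6 in males, 109 without the trend, 611 with DESeq2, 59 without the libraries high in choroid plexus markers, 343 at a threshold of 0.1, and 64 to 516 with single mice left out, lowest without WT 490 and highest without WT 522. No paired analysis was possible because each mouse number belongs to 1 mouse and replicate numbers were given in order only. Tfec, with at most 3 reads per library, is beyond this depth, and Mitf and Tfeb rest on 148 to 425 reads per library.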
